A study of Mus musculus with 72 samples.

Results

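Gdf9, Bmp15, Zp1, Zp2, Zp3, Figla, Nobox, Nlrp5, Ooep and Zar1 were followed as genes that oocytes use to signal to their follicle, to build their coat and to prepare for the embryo. These 10 genes were taken by symbol from the count table of F2 ovaries, which listed 35976 symbols, and all 10 were found there and in the tables of fetal testis, adult testis and liver. In mice, F1 offspring were conceived naturally, from CF-1 females mated with SJL/B6 males heterozygous for GFP, or by IVF, from eggs of superovulated CF-1 females and sperm of such males, with culture to blastocysts and transfer to pseudopregnant females. The F2 ovaries, 4 natural and 5 IVF, came at 12 weeks of age from daughters of naturally conceived or IVF-conceived F1 males that had been mated with wild-type CF-1 females, so no F2 animal was itself conceived in vitro. F2 testes (5 natural, 7 IVF), F2 livers of sons (5 and 5) and F2 livers of daughters (5 and 6) came from the same crosses at 12 weeks. F1 testes came from E18.5 fetuses (4 and 6) and from males at 12 weeks (5 and 5) and 39 weeks (4 and 6), conceived naturally or by IVF. RNA-Seq gave 1 library per sample, 72 libraries in all, each ovary library coming from 1 ovary of 1 daughter, and the estrous stage of the females was not given in the sources used here.

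The growing oocyte secretes GDF9 and BMP15, growth factors of the TGF-beta family that act on the granulosa cells around it through BMP receptors and SMAD proteins. It also secretes the zona pellucida glycoproteins ZP1, ZP2 and ZP3, which form the coat that sperm must bind and cross. FIGLA and NOBOX are transcription factors of the oocyte that switch on many of its genes, NLRP5 and OOEP belong to the subcortical maternal complex of the egg, and ZAR1 binds maternal mRNAs that the early embryo will use. Most of these mRNAs are stored in growing oocytes, which make up a small part of an adult ovary.

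FIGLA is known to act on zona genes through the E-box, the letters CANNTG, and the upstream sequences of a zona gene, a factor gene and a growth factor gene are therefore shown. They are the 250 bases before the RefSeq start on GRCm38.p6, in lower case with each CANNTG in capitals, and the motif reads the same on both strands. The Zp3 sequence is chr5:135979855-135980104 on the plus strand, that of Nobox is chr6:43309555-43309804 on the minus strand, and that of Bmp15 is chrX:6320725-6320974 on the minus strand, each written 5′ to 3′ in the direction of its gene.
Zp3: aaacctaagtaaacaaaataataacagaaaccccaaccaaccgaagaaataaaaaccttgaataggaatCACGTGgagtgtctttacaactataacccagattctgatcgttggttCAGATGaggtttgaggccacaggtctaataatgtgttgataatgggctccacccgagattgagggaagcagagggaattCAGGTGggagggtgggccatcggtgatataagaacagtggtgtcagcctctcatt
Nobox: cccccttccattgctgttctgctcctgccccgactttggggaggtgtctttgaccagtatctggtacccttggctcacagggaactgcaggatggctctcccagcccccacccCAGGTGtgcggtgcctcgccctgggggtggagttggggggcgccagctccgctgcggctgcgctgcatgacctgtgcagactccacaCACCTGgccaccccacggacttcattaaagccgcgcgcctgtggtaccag
Bmp15: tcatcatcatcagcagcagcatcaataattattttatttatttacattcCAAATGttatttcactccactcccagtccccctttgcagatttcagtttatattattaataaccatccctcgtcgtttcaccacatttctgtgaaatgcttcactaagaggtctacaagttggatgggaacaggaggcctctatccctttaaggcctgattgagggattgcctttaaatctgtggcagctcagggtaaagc
Of the 10 genes, 7 were matched in the RefSeq promoter table (Gdf9, Zp1 and Zp2 were not). Zp3 held 3 E-boxes, starting at -181 (CACGTG), -134 (CAGATG) and -55 (CAGGTG) from its start, Nobox held 2 (CAGGTG at -137 and CACCTG at -50), and Bmp15 held 1 (CAAATG at -201). Each of the 7 genes had at least 1. The motif is common: 66.2% of the 32851 promoters in the table held at least 1 in the same 250 bases, and 12.2% held 3 or more, so these matches describe the letters alone.

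The ovaries carried clear oocyte mRNA in both groups. In order to compare genes with each other, levels were divided by exon length (RPKM, the scaled CPM explained next divided by exon length in kilobases, with exons of GENCODE M21). In natural ovaries Gdf9 stood highest at 43.8 ± 4.41 RPKM (SD, n = 4), followed by Zp3 at 30.0 ± 2.35, Zp2 at 23.1 ± 2.03 and Bmp15 at 14.0 ± 0.71. Zp1 (12.9 ± 1.76), Ooep (12.1 ± 1.73), Nobox (7.92 ± 1.17), Nlrp5 (7.60 ± 1.57) and Zar1 (6.19 ± 0.78) came next, and Figla was lowest at 0.66 ± 0.34. The ranges over the 4 ovaries overlapped between Bmp15 and Zp1, between Zp1 and Ooep, between Nobox and Nlrp5 and between Nlrp5 and Zar1, and the other neighbours in this order did not overlap. These ranges cover the spread between ovaries and not the choice of exon lengths, on which the order depends. Before the division, Zp2 stood above Zp3, at 62.9 and 39.7 CPM. No other gene overlapped 9 of the 10 genes in GENCODE M21, and a miRNA gene, Gm25196, lies within Nlrp5 on the same strand.

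Some ovaries carried markers of other tissue, and depth differed between the groups. Total counts were 17372532 to 49192804 in naturals and 11489461 to 16553139 in IVF ovaries, with no overlap. Of the 3 oviduct markers (Ovgp1, Foxj1, Pax8), the summed level was 2.22 to 7.22 CPM (the share of a library's counts, scaled to 1e+06 and by TMM, a factor that evens out composition) in naturals 1, 3 and 4 and 1209 CPM in natural 2. It was 82.4 CPM in IVF 1 and 2.11 to 16.1 CPM in the other IVF ovaries. Of the fat markers, Cfd reached 86.0 CPM and Adipoq 4.63 CPM in IVF 1, each the highest of all ovaries. The fat marker Plin1 was not raised there, at 29.1 CPM against 39.4 CPM in natural 4 and 37.6 CPM in IVF 3. Granulosa markers were present in every ovary, whereas the spermatid markers summed to at most 1.75 CPM and the liver marker Alb to at most 3.32 CPM. Apoa1, also listed for liver, was at 29.8 to 71.2 CPM in naturals and 26.5 to 33.8 CPM in IVF ovaries. Results are therefore also given without natural 2 and IVF 1.

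All 9 of the genes that passed the filter on low counts had lower mean levels in F2 ovaries sired by IVF-conceived males than in naturals, and none reached the threshold for a differentially expressed gene (DEG). That threshold was a Benjamini-Hochberg adjusted p under 0.05 with a change over 1.5-fold, and edgeR's quasi-likelihood test called 0% of the 16502 genes tested. An unadjusted p under 0.05 was reached by 1757 of them, and the DESeq2 Wald test called 88 genes, none among the 10. The median log2 fold change of the 9 genes was -0.28, with a range from -0.47 to -0.18, against a median of -0.01 over all genes tested, of which 52.3% were below 0. The direction is a description of means and not a test. In bulk tissue, fewer oocytes and less mRNA per oocyte cannot be told apart.

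**Figure D1:**
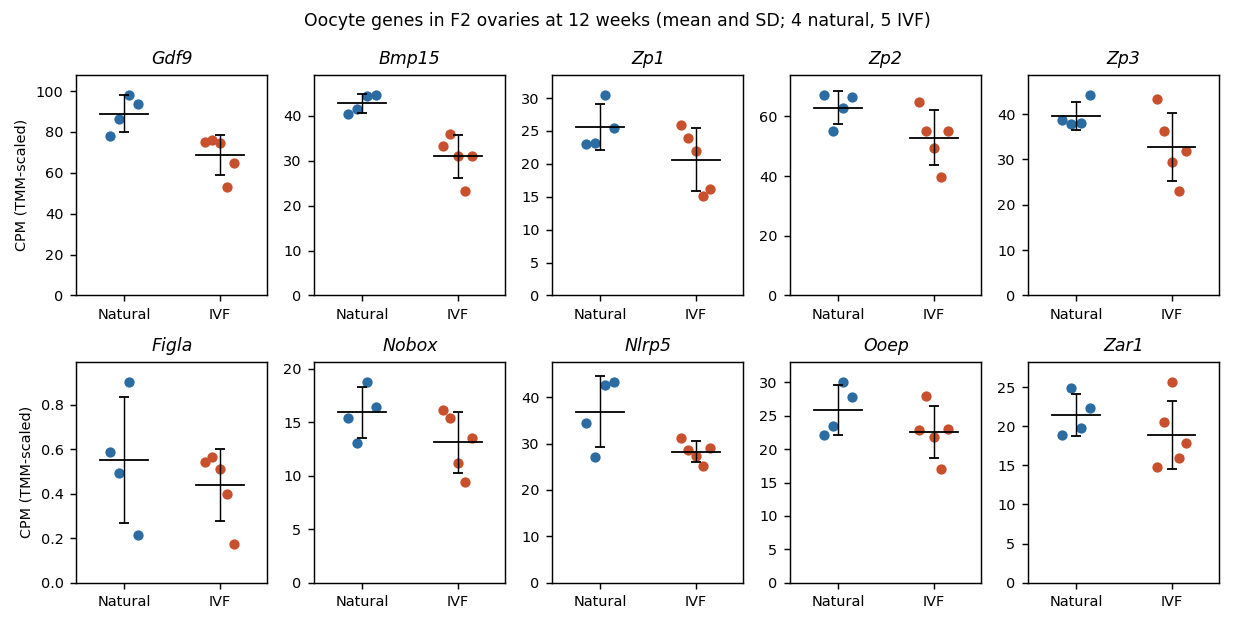
Level of each of the 10 genes in every F2 ovary, in TMM-scaled CPM on axes that start at 0. Points are ovaries (4 natural, 5 IVF), the horizontal line is the mean and the bar is the SD; the groups are apart for Gdf9 and Bmp15 and overlap for the other 8 genes.

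The growth factor genes were the members whose groups did not overlap. Bmp15 was at 40.3, 41.5, 44.4 and 44.7 CPM in naturals 1 to 4 and at 33.4, 35.9, 31.0, 23.3 and 31.1 CPM in IVF 1 to 5. Every IVF ovary was below every natural ovary, and IVF 4 was the lowest. The means were 42.7 ± 2.16 CPM (SD, n = 4) and 30.9 ± 4.73 CPM (SD, n = 5), which gave a log2 fold change of -0.47 (SE 0.11, edgeR unadjusted p = 0.00178, adjusted p = 0.326). With the DESeq2 Wald test the adjusted p of Bmp15 was 0.0352 at a log2 fold change of -0.46, a change smaller than 1.5-fold, and over all alternatives the adjusted p ran from 0.0352 to 0.651.

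Gdf9 was at 77.8, 86.2, 98.3 and 93.7 CPM in naturals 1 to 4 and at 74.9, 76.3, 74.6, 53.2 and 65.0 CPM in IVF 1 to 5. Again no IVF ovary reached the lowest natural one, though IVF 1 to 3 lay close below natural 1. The means were 89.0 ± 8.96 CPM (SD, n = 4) and 68.8 ± 9.82 CPM (SD, n = 5), which gave a log2 fold change of -0.37 (SE 0.11, edgeR unadjusted p = 0.00796, adjusted p = 0.391). Over all genes tested, 1.56% had every IVF ovary below every natural ovary, and 2 of the 9 tested members did.

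The zona genes were lower on average in IVF ovaries but their groups overlapped. Zp1, which cross-links zona filaments, was at 23.1, 23.2, 30.5 and 25.4 CPM in naturals 1 to 4 and at 25.9, 23.9, 22.01, 15.1 and 16.2 CPM in IVF 1 to 5 (log2 fold change -0.30, SE 0.17, edgeR adjusted p = 0.534). Zp2, a zona protein that sperm bind, was at 67.3, 55.2, 62.7 and 66.6 CPM and at 64.9, 55.2, 49.3, 39.7 and 55.1 CPM (log2 fold change -0.25, SE 0.13, adjusted p = 0.497). IVF 1 lay among the naturals for both genes, and IVF 4 was lowest. Zp3, the partner of ZP2 in the filaments, was at 38.6, 37.8, 38.0 and 44.3 CPM and at 43.3, 36.3, 29.4, 23.1 and 31.9 CPM (log2 fold change -0.27, SE 0.15, edgeR adjusted p = 0.535). For Zp3, IVF 1 was above naturals 1 to 3, and the other 4 IVF ovaries were below all naturals.

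Of the transcription factors, Figla gave too few counts to test. It had 29, 10, 16 and 4 counts in naturals 1 to 4 and 8, 9, 8, 6 and 2 counts in IVF 1 to 5, where 3 counts are the limit that a count of 0 allows. IVF 5 was below that limit. The means were 0.55 CPM in naturals and 0.44 CPM in IVF ovaries, and a difference was not tested at this depth. Nobox ranged from 13.1 to 18.8 CPM in naturals and from 9.39 to 16.2 CPM in IVF ovaries (log2 fold change -0.28, SE 0.18, edgeR adjusted p = 0.580). The ranges overlapped, with 2 of 5 IVF ovaries below all naturals.

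Among the maternal factors, Nlrp5 was at 34.4, 27.1, 42.6 and 43.3 CPM in naturals 1 to 4 and at 31.2, 28.6, 27.4, 25.1 and 29.0 CPM in IVF 1 to 5. Natural 2, the ovary with oviduct markers, lay among the IVF values, and the other 3 naturals were above all of them. Its log2 fold change was -0.38 (SE 0.13, edgeR unadjusted p = 0.0161, adjusted p = 0.420). Ooep ranged from 22.1 to 30.1 CPM in naturals and from 17.0 to 27.9 CPM in IVF ovaries (log2 fold change -0.20, SE 0.14, adjusted p = 0.627). Zar1 ranged from 18.9 to 24.9 CPM and from 14.8 to 25.7 CPM (log2 fold change -0.18, SE 0.16, adjusted p = 0.701), and its highest value was that of IVF 3. Bmp15, Gdf9 and Nlrp5 were the 3 of 9 genes that were lower with an unadjusted p under 0.05, where 4.85% of all genes tested were.

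**Figure D2:**
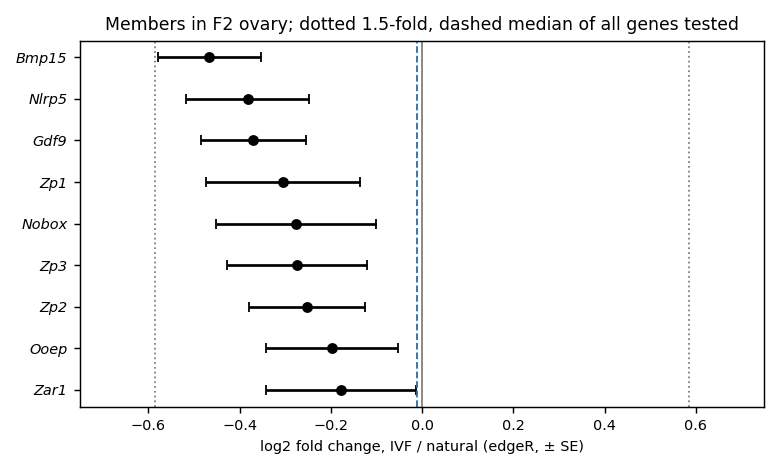
Log2 fold change of IVF over natural F2 ovaries for the 9 genes tested, with the SE of edgeR's fit as bars. All 9 points are below 0 and within the dotted lines at 1.5-fold, and the dashed line is the median of all 16502 genes tested, -0.01.

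Without natural 2 and IVF 1, the 9 genes were again lower, with a median log2 fold change of -0.42 against 0.00051 for all genes, 7 of the 9 had an unadjusted p under 0.05 where 1225 of 16532 genes did in either direction, and none was a DEG. These libraries were chosen after the data were seen. Zar1 moved from -0.18 to -0.021, Nobox from -0.28 to -0.45, Zp2 from -0.25 to -0.40, Zp3 from -0.27 to -0.42 and Nlrp5 from -0.38 to -0.54. With all libraries thinned to the depth of the smallest, the values of Gdf9 and Bmp15 were -0.38 and -0.51. Divided by the summed counts of 9 granulosa markers in place of the library total, Gdf9 and Bmp15 were at -0.41 and -0.51, and the 9 genes ranged from -0.51 to -0.23.

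Most of a wider set of oocyte genes also had lower means in IVF ovaries. Of 35 other genes known from oocytes, 33 were tested, 29 were lower and 4 were higher in IVF ovaries, the median log2 fold change was -0.35, and none was a DEG. For 3 of the 33 the groups did not overlap, with IVF lower, as for 1.56% of all genes tested. Bcl2l10, a BCL2 family gene of oocytes, was at 36.6 ± 4.35 CPM in naturals (SD, n = 4) and 24.9 ± 3.35 CPM in IVF ovaries (SD, n = 5) (log2 fold change -0.56, edgeR adjusted p = 0.266). Oog1 was at 3.73 ± 0.57 and 2.15 ± 0.37 CPM (log2 fold change -0.79, adjusted p = 0.349), and Khdc3, a further gene of the subcortical maternal complex, was at 27.9 ± 3.46 and 21.3 ± 2.17 CPM (log2 fold change -0.39, adjusted p = 0.349). The 4 genes that were not lower were Tle6 (0.02), Dppa3 (0.01), Ddx4 (0.09) and Astl (0.09), named here after their log2 fold changes were seen. Without natural 2 and IVF 1, 31 of 33 were lower with a median of -0.44.

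The summed level of the 10 genes was 339, 333, 386 and 385 CPM in naturals 1 to 4 and 328, 321, 293, 222 and 283 CPM in IVF 1 to 5. The 35 other oocyte genes summed to 624, 627, 699.9 and 699 CPM and to 603, 598, 515, 448 and 528 CPM in the same order. Both sums were lower in every IVF ovary than in every natural ovary, and IVF 4 was lowest in both. The summed granulosa markers ranged from 2475 to 3577 CPM in naturals and from 2322 to 3331 CPM in IVF ovaries, which overlap. The 8 luteal markers summed to 19721 to 33053 CPM in naturals and to 32623 to 45664 CPM in IVF ovaries, 7 of the 8 had a log2 fold change above 0, and their part in the lower oocyte levels was not tested.

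**Figure D3:**
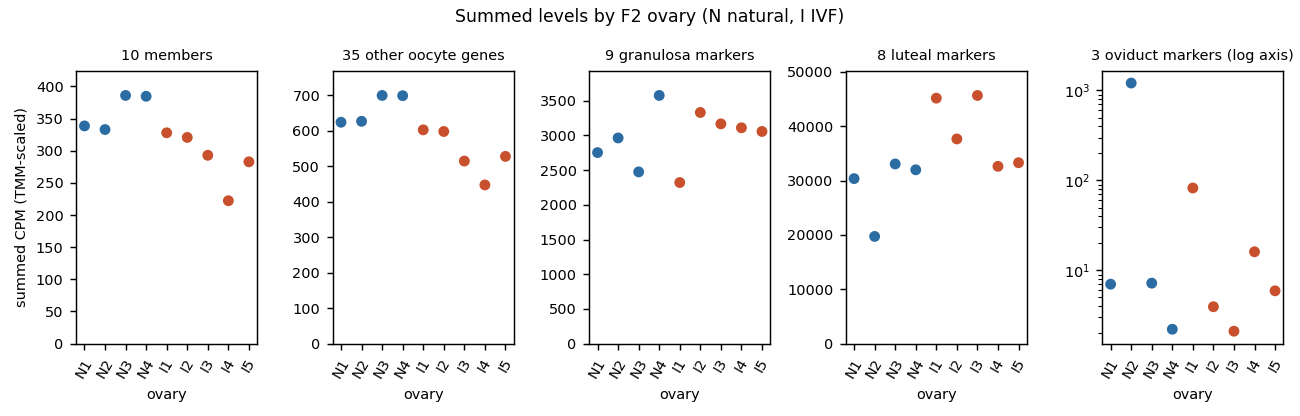
Summed TMM-scaled CPM of 5 gene lists in each F2 ovary, natural in blue and IVF in red. The first and second panels show every IVF ovary below the natural ovaries, the granulosa panel shows overlap, and the oviduct panel, on a log axis, shows natural 2 at 1209 CPM and IVF 1 at 82.4 CPM.

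To ask whether single members changed within the oocyte set, ratios of counts were compared, with 1 count added to each side. Apart from that added count, which matters for Figla with its 2 to 29 counts, they do not depend on the library total. Gdf9 counts were 1.93, 2.08, 2.21 and 2.09 times those of Bmp15 in naturals 1 to 4 and 2.24, 2.12, 2.41, 2.28 and 2.09 times in IVF 1 to 5. The ratio was higher in 3 IVF ovaries than in any natural ovary, and on the log2 scale the groups were 0.10 apart (exact permutation test over ovaries, two-sided p = 0.0952, or 0.571 after Benjamini-Hochberg adjustment for 6 ratios). The other 5 ratios (Zp1/Zp2, Zp2/Zp3, Zp1/Zp3, Nlrp5/Ooep and Figla/Nobox) differed by -0.16 to 0.13, with exact permutation p from 0.302 to 0.873. Figla/Nobox, at 0.13 here, was at 0.36 with 5 counts added to each side. The smallest p that 4 against 5 ovaries allow is 0.0159. Each gene was also divided by the summed counts of the 35 other oocyte genes, a comparison added after the values were seen. Bmp15 was then at 0.0646, 0.0663, 0.0636 and 0.0640 of that sum in naturals 1 to 4 and at 0.0554, 0.0602, 0.0603, 0.0522 and 0.0590 in IVF 1 to 5. All 5 IVF ovaries were below all naturals, with a difference of -0.17 on the log2 scale (exact permutation p = 0.0159, adjusted p = 0.159 over 10 ratios). For the other 9 genes the differences ran from -0.07 for Gdf9 to 0.15 for Figla, with exact permutation p from 0.254 to 0.968.

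The genes varied together from ovary to ovary. IVF 4 was the lowest of the 9 ovaries for 8 of the 10 genes, and natural 3 or natural 4 was the highest for 8. Over the 45 pairs of genes, Pearson's r of log2 CPM had a median of 0.74 and Spearman's rho a median of 0.67 (9 ovaries), and with the group means removed the median r was 0.60. By exact permutation over the ovaries, 23 pairs had an adjusted p under 0.05 for r and 3 for rho, adjusted over the 45 pairs. These 3 were Gdf9 with Bmp15 (r = 0.96, rho = 0.97, exact p = 1.65e-05 for r, adjusted p = 0.00744 for rho), Zp2 with Zp3 (r = 0.94, rho = 0.95, exact p = 0.000267 for r, adjusted p = 0.00794 for rho) and Nobox with Nlrp5 (r = 0.81, rho = 0.93, exact p = 0.00913 for r, adjusted p = 0.0112 for rho). The group means were left in for these tests, so the difference between natural and IVF ovaries enters the p-values. With the group means removed, r was 0.91, 0.92 and 0.74 for the same 3 pairs, given without a test.

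Without the 2 ovaries farthest from the median of the first gene, r was 0.89 for Gdf9 with Bmp15, 0.92 for Zp2 with Zp3 and 0.82 for Nobox with Nlrp5, and the median over all 45 pairs was 0.51. Zar1 stood apart: its r with the 8 other members, Figla left out, ran from -0.03 to 0.52, with a median of 0.20, and none had an adjusted p under 0.05 (8 exact permutation tests). The 9 pairs with Figla, a gene of 2 to 29 counts, had a median r of 0.25. Among the 8 other genes all 28 pairs had r of 0.68 or more. All pairs rest on the same 9 libraries and are not independent of each other.

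**Figure D4:**
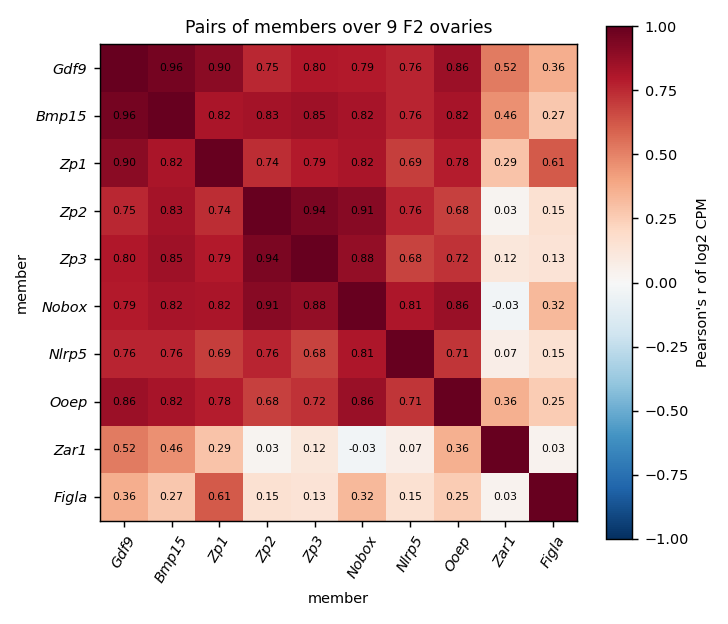
Pearson's r of log2 CPM for each pair of genes over 9 F2 ovaries, from -1 (blue) to 1 (red). The block from Gdf9 to Ooep holds r of 0.68 or more, whereas the rows of Zar1 and Figla are pale.

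Genes outside the 10 were ranked by r to their mean standardized level over the 9 ovaries, with the group means removed. Of 15258 genes ranked, the first 15 had r from 0.91 to 0.96. They included Padi6 (r = 0.93), an oocyte enzyme of the subcortical maternal complex, along with Zfp58, Mapk1ip1, Phf20, E330034G19Rik, A730082K24Rik, Gm1965, Fbxw26, Snap91, Wdr20, Zfp619, Gm16638, Ppp1r21 and LOC102638890. The 31 other oocyte genes in the ranking had a median r of 0.67, against -0.01 for all genes ranked, and ranged down to -0.40 for Kpna7. With 9 ovaries and this many genes, high values also arise among unrelated genes, and no function is read from them.

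The receiving side of the pathway was followed with genes listed by role. Of 11 receptors and SMADs, 5 were lower and 6 higher in IVF ovaries, the median log2 fold change was 0.03 and none was a DEG. This split was not stable. Without natural 2 and IVF 1, 9 of the 11 were lower with a median of -0.06, and over 19 refits 4 to 9 were lower. Smad5, a SMAD of the BMP branch, was at 144 ± 15.3 CPM (SD, n = 4) in naturals and 127 ± 6.27 CPM (SD, n = 5) in IVF ovaries, without overlap (log2 fold change -0.18, edgeR adjusted p = 0.458). It was the single gene of the 11 without overlap, where 1.56% of all genes tested had every IVF ovary below every natural ovary. Of 7 inhibitors, 4 were lower, the median was -0.01 and none was a DEG. Of these, Fstl3 was at 0.26 (edgeR adjusted p = 0.750) and Fst at -0.14 (adjusted p = 0.825). Of 9 genes that GDF9 and BMP15 are known to regulate in granulosa cells, 8 were tested, 6 were lower and 2 higher. The median was -0.36 and none was a DEG. The list was not divided by the direction of regulation, so its median does not measure the output of the pathway. Its lowest log2 fold changes were those of Ptgs2 (-1.32) and Tnfaip6 (-0.92), which varied widely among naturals (1.59 ± 2.01 and 3.86 ± 3.61 CPM). The 3 smallest p-values in the list were those of Amh, a granulosa hormone of growing follicles (263 ± 58.4 and 186 ± 29.7 CPM, log2 fold change -0.50, edgeR adjusted p = 0.416), Kitl, the granulosa ligand of the oocyte receptor KIT (61.5 ± 11.5 and 37.8 ± 18.6 CPM, log2 fold change -0.71, adjusted p = 0.508), and Npr2 (-0.23, adjusted p = 0.518).

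Cells around the oocyte were described in the same way. Of 9 granulosa markers 3 were lower, with a median of 0.15, and Foxl2 was at 0.19, Inhbb at 0.37 and Hsd17b1 at 0.15 (edgeR adjusted p from 0.603 to 0.673). All 4 theca markers were lower with a median of -0.51, and Ptch1 alone of the 4 did not overlap between the groups (149 ± 10.5 and 115 ± 10.3 CPM, log2 fold change -0.37, adjusted p = 0.286). The share of all genes tested without overlap and with IVF lower was 1.56%. The luteal markers had a median of 0.45, and Cyp11a1, the first enzyme of steroid synthesis (6875 ± 1046 and 10592 ± 2005 CPM, log2 fold change 0.62, adjusted p = 0.340), and Prlr, the prolactin receptor (1280 ± 286 and 1776 ± 118 CPM, log2 fold change 0.47, adjusted p = 0.401), were higher in every IVF ovary than in every natural ovary. Of all 16502 genes tested, 343 were likewise higher in every IVF ovary than in every natural ovary. Cyp11a1 was the single listed gene that the DESeq2 Wald test called (log2 fold change 0.63, adjusted p = 0.0110). Of 6 stroma and vessel markers 3 were lower, with a median of 0.0018, and Acta2 was at -0.20, Pecam1 at 0.16 and Pdgfra at -0.17. Without natural 2 and IVF 1, 5 of the 6 were lower, with a median of -0.04. Of 4 immune markers 3 were lower, and Adgre1 was at -1.02, Cd68 at -0.43 and Ptprc at -0.15 (smallest edgeR adjusted p = 0.349). The oviduct markers Ovgp1 (-3.97) and Foxj1 (-3.08) were highest in natural 2, and the fat marker Cfd (2.94) in IVF 1. Plin1 (-0.28), Apoa1 (-0.66), Clu (-0.16) and Sox9 (-0.33) were not DEGs.

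Outside the ovary the 10 genes divided into those near 0 and those with counts in testis. In livers none of the 10 passed the filter on low counts. In natural livers of daughters, Gdf9 had 6 counts in 62440575 over 5 livers and the other 9 genes had 0. Against a floor of 3 counts over the group, pooled natural ovaries were at least 332-fold higher for Nobox and at least 1354-fold higher for Zp2, the other genes at 0 lying between these apart from Figla, at least 11.8-fold. Mates of a pair may have been counted separately, and with 6 counts as the floor these bounds are 166-fold, 677-fold and 5.89-fold. Of all 16219 genes in that fit 42.6% were called higher in ovary, and no test is given for the members, since they passed the filter on low counts through the ovaries alone.

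Natural F2 testes had few counts of most of the genes. Over the 5 natural testes Bmp15 and Zar1 had 0 counts, Zp2 had 2, Ooep 11, Zp1 22, Zp3 23 and Nobox 35, and these 7 genes passed the filter on low counts through the ovaries, so no test is given for them. Pooled natural ovaries were at least 1864-fold higher than pooled natural testes for Bmp15 and at least 922-fold for Zar1 against a floor of 3 counts over the group (932-fold and 461-fold with 6 counts). The ratio of pooled levels was 299 for Ooep, 228 for Zp3, 150 for Zp1 and 59.8 for Nobox.

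Gdf9 and Nlrp5 had at least 10 counts in every library of both organs and were called higher in natural ovaries, where 36.2% of 22389 genes were. Nlrp5 was 7.04-fold higher (edgeR adjusted p = 3.05e-08) and Gdf9 33.8-fold (adjusted p = 7.32e-06). The Gdf9 value depended on testis natural 5, which had 129 counts against 27 to 37 in the other natural testes, and its log2 fold change went from 5.08 to 5.73 without that testis. Figla went the other way, with 4 to 29 counts in natural ovaries and 42 to 63 in natural testes, a ratio of pooled levels of 0.299 for ovary over testis. The organs were counted in separate tables, so organ and table cannot be told apart.

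**Figure D5:**
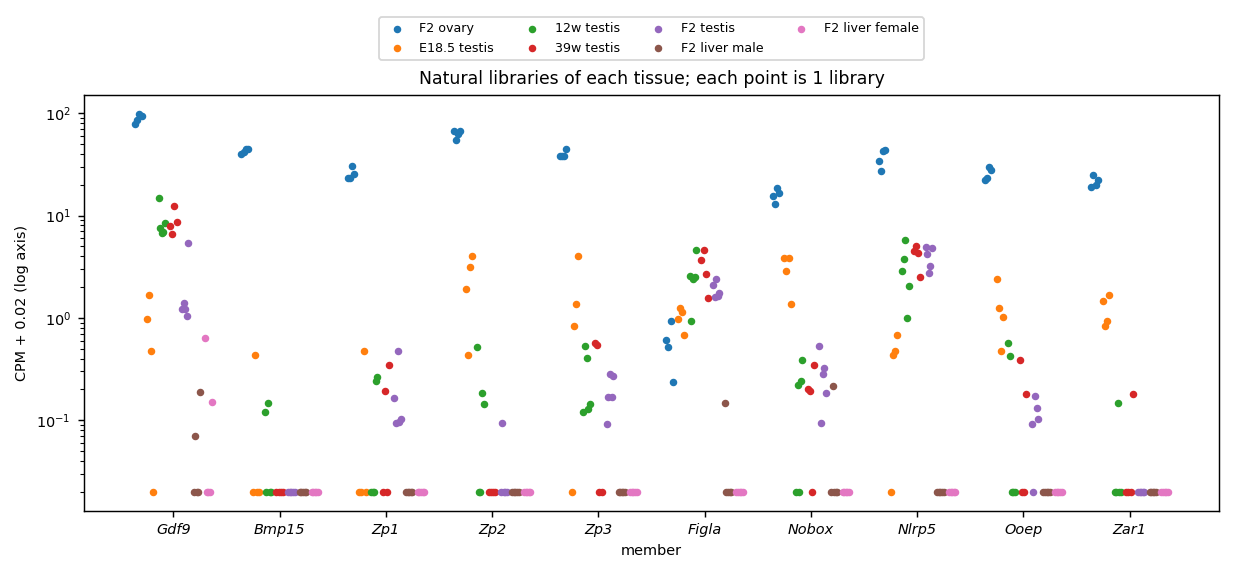
CPM of the 10 genes in the natural libraries of 7 tissues, on a log axis with 0.02 added so that values of 0 show at the bottom. Each point is 1 library; levels are scaled within each tissue. Ovaries lie above the other tissues for 9 genes, and for Figla the adult testes lie above the ovaries.

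In F2 testes, 3 of the genes passed the filter and none was a DEG (0.914% of 21454 genes were). Gdf9 had 33, 37, 32, 27 and 129 counts in naturals 1 to 5 and 16 to 43 counts (median 23) in the 7 IVF testes. Natural 5 stood apart from all other testes. The log2 fold change was -0.81 (SE 0.39, edgeR adjusted p = 0.368), and it was -0.065 without natural 5. Figla had 57, 43, 63, 43 and 42 counts in naturals and 17 to 49 (median 28) in IVF testes, where 6 of 7 were below all naturals in CPM (log2 fold change -0.53, SE 0.23, unadjusted p = 0.0331, edgeR adjusted p = 0.305). Nlrp5 ranged from 72 to 136 counts in naturals and from 26 to 116 in IVF testes, with a log2 fold change of -0.06 (adjusted p = 0.951).

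In F1 testes at 12 weeks Gdf9 was at 14.9, 7.49, 6.72, 6.96 and 8.40 CPM in naturals 1 to 5 and at 12.6, 14.3, 10.2, 17.3 and 11.04 CPM in IVF 1 to 5. All IVF testes were above naturals 2 to 5, and natural 1 lay among them. The log2 fold change was 0.55 (SE 0.21, edgeR adjusted p = 0.279), so that none of the 3 genes tested was a DEG (0.199% of 20113 genes were). Without natural 1, the natural testis with the highest Gdf9 level, Gdf9 passed the threshold, at 0.82 (edgeR adjusted p = 0.0298). In that refit 54 of 20341 genes were called, and in the other 18 of 19 alternatives no member was. At 39 weeks Gdf9 ranged from 6.62 to 12.5 CPM in naturals and from 6.00 to 15.1 CPM in IVF testes (log2 fold change 0.08, adjusted p = 0.953), and again none was a DEG (0.00996% of 20083 genes were). Figla was at 0.08 at 12 weeks and -0.20 at 39 weeks, and Nlrp5 at 0.10 and -0.14, with adjusted p from 0.875 to 0.953. Whether Gdf9 differs between the ages in its response was not tested.

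In the fetal testis another subset of the genes passed the filter on low counts. Figla (0.99 CPM in naturals) and Zar1 (1.20 CPM) had counts in every fetal library but did not pass it. At E18.5 Gdf9, Zp2, Zp3, Nobox and Ooep were tested, and none was a DEG (0.221% of 15406 genes were). Nobox had 4 to 17 counts in natural and 18 to 63 counts in IVF testes, which were sequenced deeper, at 1.33 to 3.83 and 1.94 to 4.35 CPM (log2 fold change 0.14, edgeR adjusted p = 0.878). Zp2 was at 0.41 to 4.00 CPM in naturals and 0.71 to 1.69 CPM in IVF testes (-0.83, adjusted p = 0.398). The log2 fold changes of Gdf9 (0.81), Ooep (0.18) and Zp3 (-0.19) rested on at most 50 counts per testis, with adjusted p from 0.604 to 0.923.

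Natural fetal and natural 12-week testes held the genes at different levels, given side by side without a test, since the fetal naturals had at most 17 counts of any of the 5 genes named here. Gdf9 had 14 counts over 4 fetal testes and 817 over 5 testes at 12 weeks, at 0.76 ± 0.70 CPM (SD, n = 4) and 8.89 ± 3.41 CPM (SD, n = 5). Nlrp5 had 6 and 273 counts, at 0.38 ± 0.28 and 3.08 ± 1.81 CPM, and Figla had 17 and 227 counts, at 0.99 ± 0.25 and 2.59 ± 1.33 CPM. Nobox and Zar1 stood the other way round. Nobox had 51 counts in the fetal and 14 in the 12-week naturals, at 2.96 ± 1.17 and 0.16 ± 0.16 CPM, and Zar1 had 19 and 2 counts. The fetal naturals had 2904727 to 4869139 counts each, 77.4% of 17009 genes were called between these tables, which were scaled separately, and age and table cannot be told apart here.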

How the data were processed

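RNA-Seq count tables of 72 libraries in 7 tissues were used as deposited, whole numbers without normalization. The authors made stranded mRNA libraries. The submitters' processing notes name Trimmomatic 0.32, STAR 2.3.0e, featureCounts 1.5.0, DESeq2 and the build mm10; the strand setting was not given in the sources used here. Of counts from 1 to 20, 64.1% to 69.8% were even in the ovary libraries, as when mates of a pair are counted separately. This was not tested, and a count may be less than 1 independent fragment. Limits of 3 counts cover counting error alone. Total counts per library ranged from 543745 to 90441392. Samples were grouped by their labels. The labels do not give the litter of each sample or, for F2 animals, the F1 sire. The p-values therefore measure the spread between these samples and not between litters or sires.

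Within each tissue edgeR 4.0.16 in R 4.3.3 was used (filterByExpr, TMM, robust quasi-likelihood fits, two-sided test, Benjamini-Hochberg adjustment over all genes tested). CPM are TMM-scaled within a tissue. Log2 CPM for correlations had 0.5 CPM added, and ratios had 1 count added. Fitting across tissues used natural libraries alone. On simulated ovary counts the script was checked. Exact permutation tests took 2 times the smaller tail, as scipy 1.17.1 does. The members and gene lists were chosen with earlier results of these data known. Named genes were the members, listed genes that were DEGs or whose groups did not overlap (otherwise the 3 with the smallest p), and the 15 most alike, of which 1 gene is not reported here. Alternatives were the size factors and Wald test of DESeq2 1.42.0, dropping the filter or asking each library for 10 counts, dropping the fold limit, a replicate block, halved or thinned counts, adding 1 surrogate variable from sva 3.50.0, and leaving out single libraries. Same-numbered samples did not deviate together in every pair of any tissue, so numbers were not taken as pairs. The library pairs most alike were F2 testes IVF 3 and 4 and 39-week testes natural 1 and 2. Their chi-square per degree of freedom was 1.45 and 1.55 on halved counts. No pair was merged, and these values do not tell whether the libraries of a pair come from the same animal. Genome positions are from GENCODE M21 and RefSeq, both GRCm38.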

Additional observations from a re-analysis of the deposited data

Results flagged for a closer look

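Of 46 groups of 4 to 7 libraries examined for the tested genes, 6 held a library far from its group by Dixon's criterion, which chance alone meets in about 1 of 20 groups. In F2 ovaries, natural 4 was highest for Zp3 at 44.3 CPM. In F2 testes, natural 5 was highest for Gdf9 at 5.34 CPM, IVF 7 was highest for Figla at 2.19 CPM and IVF 6 was lowest for Nlrp5 at 1.19 CPM. In 12-week testes, natural 1 was highest for Gdf9 at 14.9 CPM and IVF 3 was highest for Nlrp5 at 5.76 CPM.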

How the results depend on the processing

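In F2 ovaries the 9 tested members stayed below 0 in all 19 refits and with granulosa scaling, and no member was called; Bmp15 ran from -0.53 to -0.38 and Gdf9 from -0.42 to -0.29. Of the other oocyte genes, 27 to 32 were lower. The number of listed genes called was 1 with the DESeq2 Wald test, as was the number of members called at 12 weeks without natural 1 (range 0 to 1 with 1 library left out). Between tissues, members called in the main fits are not counted here, since most passed the filter through 1 group alone. With at least 10 counts asked of every library, 2 members were called higher in ovary than F2 testis. At that setting 10432 of 13877 genes were called in either direction. Between ovary and liver, and between fetal and 12-week testes, no member had that many counts in every library.

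The number of genes called in ovary over the whole table was 0 to 3 in the edgeR refits and 88 with the DESeq2 Wald test. No replicate block changed the call of a member, in fits that leave out unpaired libraries, but it moved the calls over all genes from 34 to 2 at E18.5 and from 40 to 8 at 12 weeks. Same-numbered ovaries had correlations of -0.065 to 0.036 in their deviations, so the numbers do not pair them. With the replicate block Nlrp5 in F2 testes was 0.18, Gdf9 at 39 weeks -0.043, Zp1/Zp2 0.035 (exact p = 0.75) and Zp1/Zp3 0.049 (exact p = 0.375), each a change of sign. Signs also changed with 1 surrogate variable for Zp3 at E18.5 (0.76) and Nlrp5 at 12 weeks (-0.017). With 1 library left out, ranges crossing 0 were -0.17 to 0.10 for Nlrp5 in F2 testes, -0.11 to 0.69 for Ooep, -0.63 to 0.74 for Zp3 and -0.068 to 0.28 for Nobox at E18.5. At 12 weeks they were -0.15 to 0.39 for Figla and -0.20 to 0.44 for Nlrp5, and at 39 weeks -0.11 to 0.29 for Gdf9 and -0.42 to 0.039 for Figla. Among ratios they were -0.14 to 0.035 for Zp1/Zp2, -0.0027 to 0.082 for Zp2/Zp3, -0.089 to 0.082 for Zp1/Zp3 and -0.22 to 0.38 for Figla/Nobox. None of these was called, and the cause was not tested. The median r between members ran from 0.59 to 0.77.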
